A study of Homo sapiens with 2 samples.

Results

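Cohesin is the ring-shaped protein complex that holds sister chromatids together, and the genes of its core and of its main regulators were followed here in MRC-5 cells with or without knockdown of periostin. The 10 genes were SMC1A, SMC3, RAD21, STAG1, STAG2, NIPBL, WAPL, ESPL1, ESCO2 and CDCA5, chosen by name out of 21743 genes that could be named on the array through a RefSeq accession. The choice was made with earlier results of these data known. All 10 genes were found, with 16 probes between them, each printed as 1 spot. MRC-5 cells are fibroblasts from human fetal lung. The control cells had been transfected with control siRNA and the knockdown cells with periostin siRNA at 10 nM for 48 h, and each condition was 1 culture hybridized to 1 single-colour Agilent array. A single array stands for each condition, so differences have no replicate check, could not be tested and carry no p-value.

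The values below are spot intensities from which Feature Extraction, the program of the array scanner, had subtracted the background, scaled so that the 75th percentile of each array is the same. A change is the log2 ratio of knockdown to control, so that -1 is a halving of the signal. The error after a ± sign is the one that Feature Extraction propagates for a spot, carried into the log2 ratio. It was 0.20 for most probes. As a second measure, the SD of the log2 ratio between the spots of probes printed 10 times was taken over the 100 such probes nearest in signal, and it lay between 0.05 and 0.34 for the cohesin probes. Both cover the spots of these arrays and not the difference between cultures. Well above background refers to the flag that Feature Extraction gives a spot. The normexp correction named below is another way to remove the background, which fits it as a distribution and adds a constant to every spot, so that ratios of dim spots shrink. Signals of different probes depend on the probe and are not compared with each other.

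The ring of cohesin is built from the ATPases SMC1A and SMC3 and the kleisin RAD21, and a STAG protein, STAG1 or STAG2, is bound to it. NIPBL loads the ring onto chromatin and WAPL releases it, and these proteins are at work in every interphase cell, where cohesin also folds chromatin into loops. In S phase the acetyltransferase ESCO2 modifies SMC3, and sororin, the product of CDCA5, then protects the ring from WAPL so that the sister chromatids stay joined. At anaphase separase, the product of ESPL1, cuts RAD21 and the chromatids part. The first 7 genes are called constitutive here, and ESPL1, ESCO2 and CDCA5 are called cell cycle regulators, as their products act in S phase and mitosis.

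Knockdown of periostin was seen in the target itself. The single spot for POSTN gave a signal of 2638 in the control and 280 after knockdown, a log2 ratio of -3.24 ± 0.20. GAPDH, the reference gene of the qRT-PCR in the study, had a log2 ratio of 0.04 ± 0.04 (SD over 10 spots), which turned below 0 when the arrays were scaled on their medians or by loess. A value could be given for 16052 genes, of which 1095 had a bound and no ratio. A bound is the smallest change allowed by a probe well above background on only the control or only the knockdown array. Its sign is fixed by construction, and the shares past a given fold can be understated by it. Over all 16052 genes the median log2 ratio or bound was 0.06. The share of these genes past 3-fold, the threshold the study applied, was 2.75% in the lower and 3.37% in the higher direction, and the share past 2-fold was 6.42% and 7.97%.

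The cohesin genes with the lowest ratios were CDCA5 and ESPL1. Of the 7 constitutive genes 0 were lower and 0 higher by 2-fold, which is near the background, as 6.42% of all genes were lower and 7.97% higher. The median log2 ratio was -1.27 over the 3 cell cycle regulators and -0.28 over the 7 constitutive genes, beside 0.06 over all genes. The former median is the value of ESPL1. CDCA5 alone of the 10 genes, 1 of 10, was lower by more than 3-fold, where 2.75% of all genes were, and none was higher by more than 3-fold. CDCA5 passed 3-fold by less than its propagated error. At 2-fold, CDCA5 and ESPL1 were lower, beside 6.42% of all genes, and ESCO2 was higher by the brighter of 2 probes that went in opposite directions. In bulk RNA of this kind, fewer cells in a phase of the cycle and less RNA per cell cannot be told apart. The plot of signals by probe shows both arrays for each of the 16 probes.

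**Figure D1:**
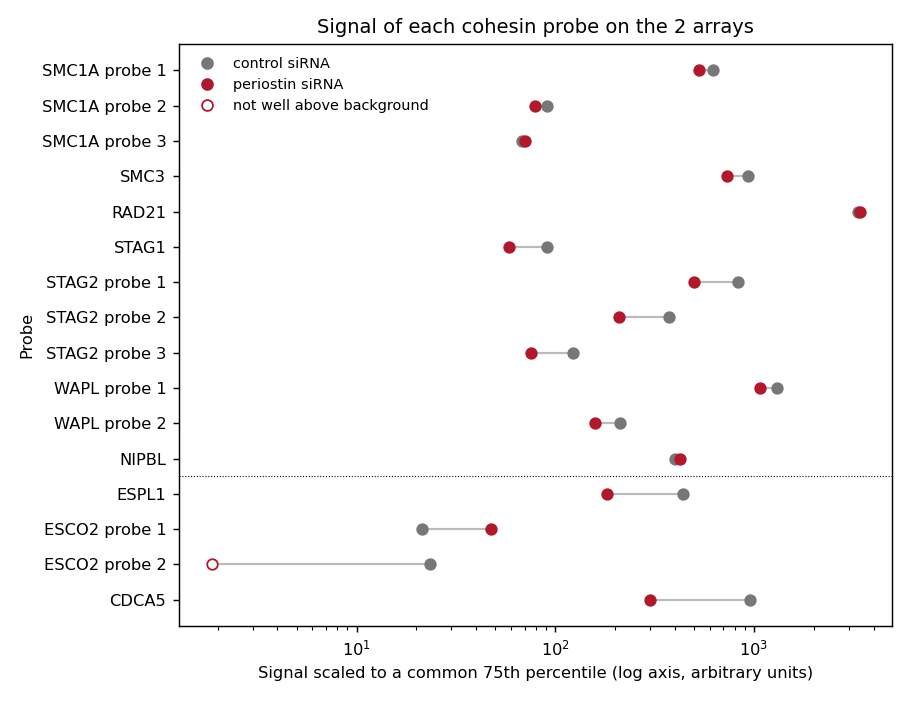
Scaled signal (log axis, arbitrary units) of the 16 cohesin probes on the control siRNA array (grey) and the periostin siRNA array (red), 1 spot per point, with the constitutive genes above the dotted line. The points of RAD21 and NIPBL nearly overlap, those of the STAG2 probes, ESPL1 and CDCA5 are shifted to lower signal, and the 2 ESCO2 probes are shifted in opposite directions.

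Among the core subunits, SMC3, a ring ATPase, had a signal of 932 in the control and 732 after knockdown. Its log2 ratio was -0.35 ± 0.20, larger than the propagated error but less than 2 times that error. SMC1A, the partner ATPase, was measured by 3 probes. The brightest gave 625 in the control and 526 after knockdown, a log2 ratio of -0.25 ± 0.20. The other probes of SMC1A gave -0.20 ± 0.21 and 0.05 ± 0.21, so that the direction was not shared by all 3. RAD21, the kleisin that closes the ring and is cut at anaphase, gave 3347 in the control and 3413 after knockdown. Its log2 ratio of 0.03 ± 0.20 lay within the error, and its sign turned to -0.10 under scaling on the median.

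The STAG subunits, which bind RAD21 and of which a ring carries 1, were the constitutive genes with the lowest ratios. All 3 probes of STAG2 were lower with periostin siRNA. The brightest gave 828 in the control and 496 after knockdown, a log2 ratio of -0.74 ± 0.20. The second gave 373 and 209.8, at -0.83 ± 0.20, and the third gave 122 and 75.1, at -0.71 ± 0.21. The 3 probes thus differed among themselves by less than the propagated error, and each lay more than 3 times that error below 0. STAG1, the alternative subunit, gave 91.1 in the control and 58.4 after knockdown from its single probe. Its log2 ratio was -0.64 ± 0.21, which became -0.36 under the normexp background correction. STAG1 and STAG2 differed from each other by 0.10, less than their errors. STAG2 stood at 59.9% and STAG1 at 64.1% of the control signal. Of all genes 9.86% and 12.2% had a ratio or bound lower than theirs.

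Of the factors that load and release the ring, NIPBL gave 399.7 in the control and 422 after knockdown. Its log2 ratio was 0.08 ± 0.20, within the error, and it was -0.05 under scaling on the median. WAPL was measured by 2 probes and both were lower with periostin siRNA. The brighter gave 1300 and 1069, a log2 ratio of -0.28 ± 0.20, and the other gave 211 and 158, a log2 ratio of -0.42 ± 0.20. The ratio of the brighter WAPL probe was thus less than 2 times its error below 0, and that of NIPBL could not be distinguished from 0. Of the 7 constitutive genes 5 had a ratio below 0 and 2 above 0, while over all genes the shares were 45.5% and 54.5%.

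**Figure D2:**
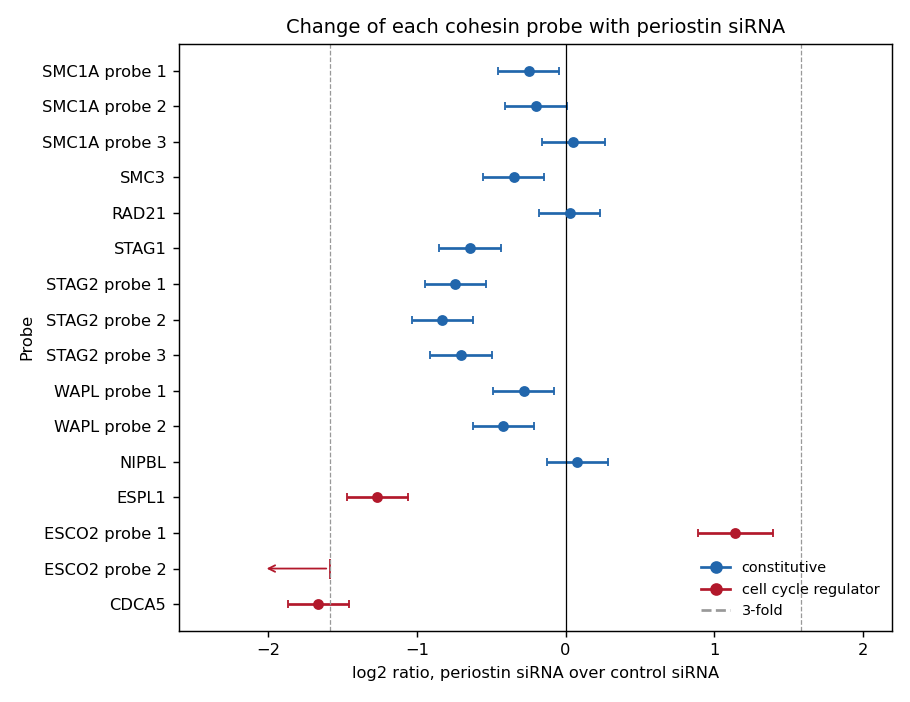
Log2 ratio of knockdown to control for each of the 16 cohesin probes, with the propagated spot error as a bar. Blue marks constitutive genes and red marks cell cycle regulators, an arrow starts at a bound, and the dashed lines mark 3-fold. The 12 constitutive probes lie between -0.83 and 0.08, CDCA5 lies at -1.66 and ESPL1 at -1.27.

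CDCA5, which encodes sororin, had a signal of 949.6 in the control and 299.7 after knockdown. Its log2 ratio was -1.66 ± 0.20, a signal 3.17-fold lower, and 2.49% of all genes had a lower ratio or bound. The ratio passed 3-fold by less than its propagated error, and under the normexp background correction it was -1.49, short of 3-fold. ESPL1, which encodes separase, had a signal of 438 in the control and 182 after knockdown. Its log2 ratio was -1.27 ± 0.20, a signal 2.41-fold lower, and 4.24% of all genes had a lower ratio or bound. ESPL1 lay 0.40 above CDCA5 and 0.53 below STAG2, and both gaps were larger than the propagated errors of the pairs, 0.29 in each case. CDCA5 and ESPL1 each rest on a single spot per array, without an outlier flag on either.

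Promoter windows from RefSeq (GRCh38.p14), 250 bases before to 50 bases after a start, were read for 8 of the 10 genes, 11 windows in all, because genes of late S phase and mitosis often carry a CHR element, at times next to a CCAAT box or an E2F site. The windows of CDCA5 and ESPL1, the pair with the lowest ratios, are printed below from 5′ to 3′ on the strand of the gene. Capitals in the CDCA5 window, chr11:65083991-65084290 on the minus strand, mark an E2F word, TTTCCCGC, and a CHR variant, TTCGAA. Capitals in the ESPL1 window, chr12:53268049-53268348 on the plus strand, mark a CCAAT box on the opposite strand, read here as ATTGG, and a CHR, TTTGAA.
CDCA5: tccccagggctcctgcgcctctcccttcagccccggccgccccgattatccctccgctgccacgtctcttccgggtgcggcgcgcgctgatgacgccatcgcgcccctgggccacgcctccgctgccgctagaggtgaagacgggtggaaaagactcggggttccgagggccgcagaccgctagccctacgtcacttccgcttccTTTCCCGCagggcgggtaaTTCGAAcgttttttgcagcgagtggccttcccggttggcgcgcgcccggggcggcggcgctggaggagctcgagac
ESPL1: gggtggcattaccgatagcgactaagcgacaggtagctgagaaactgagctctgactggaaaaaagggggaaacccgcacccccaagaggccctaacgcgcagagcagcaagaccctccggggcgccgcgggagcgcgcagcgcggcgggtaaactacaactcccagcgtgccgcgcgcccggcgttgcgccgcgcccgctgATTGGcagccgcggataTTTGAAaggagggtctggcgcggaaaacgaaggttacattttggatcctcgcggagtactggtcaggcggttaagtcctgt

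The CHR of ESPL1 began 31 bases before the start and its CCAAT box 48 bases before it. In CDCA5 the CHR variant began 26 bases and the E2F word 45 bases before the start. The letters were searched on both strands in all 35116 windows of this length. TTTGAA was held by 15.2% of them, TTCGAA by 1.45%, CCAAT by 34.6% and at least 1 of the 4 E2F words TTTCCCGC, TTTCGCGC, TTTGCCGC and TTTGGCGC by 3.31%. No motif overlapped another in the printed windows. Among the constitutive genes searched, which leave out RAD21, SMC3 held TTTGAA on the opposite strand, beginning 151 bases before its start. NIPBL, SMC1A, STAG1 and STAG2 held an E2F word in at least 1 window. STAG1, STAG2 and WAPL held CCAAT. The words were chosen with the ratios and the windows known, and a match of letters describes the window and shows no binding.

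ESCO2, the acetyltransferase of SMC3 in S phase, was measured by a pair of dim probes that named the same transcript and moved in opposite directions. The brighter probe, which stands for the gene by the rule used here, gave 21.4 in the control and 47.2 after knockdown. Its log2 ratio was 1.14 ± 0.25, and the spot SD of probes of like signal was 0.31. The other probe gave 23.3 with control siRNA and was not well above background with periostin siRNA, at 1.86, which makes it at least 3.001-fold lower. Before any background model, the median pixel of the brighter probe lay 35 above its local background with control siRNA and 46 with periostin siRNA. For the other probe the same difference was 28 and 5, whereas the median of that difference was 8.5 and 9.0 over the 22672 spots that neither array showed well above background. Under the normexp correction the log2 ratios of the probes were 0.15 and -0.51. No direction is therefore given for ESCO2. With its other probe in place of the brighter, a choice made after the values were seen, the count of cohesin genes lower by more than 3-fold became 2 of 10 and the median of the cell cycle regulators -1.59.

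In the order of their ratios, the 10 genes ran from CDCA5 through ESPL1, STAG2, STAG1, SMC3, WAPL, SMC1A, RAD21 and NIPBL to the brighter probe of ESCO2. Neighbours from STAG2 to NIPBL in this order did not differ beyond their propagated errors. The gap from STAG1 to SMC3 was 0.29 and that from SMC1A to RAD21 was 0.28, both above the SD between spots of like signal and not above the propagated error. CDCA5, ESPL1, STAG2 and STAG1 were the genes with a ratio below 0 by more than 2 times the propagated error. That split depends on the measure of error. SMC3, WAPL and the brightest probe of SMC1A, at -0.35, -0.28 and -0.25, had SDs between spots of like signal of 0.07, 0.06 and 0.07. They thus also lay below 0 by more than 2 times that SD. The median of the cell cycle regulators was 0.98 below that of the constitutive genes on the log2 scale, a gap that a shift common to all genes cannot alter. It was -0.836 under the normexp correction, -0.996 under loess, -0.993 under quantile normalization and -0.918 when the probes of a gene were averaged.

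**Figure D3:**
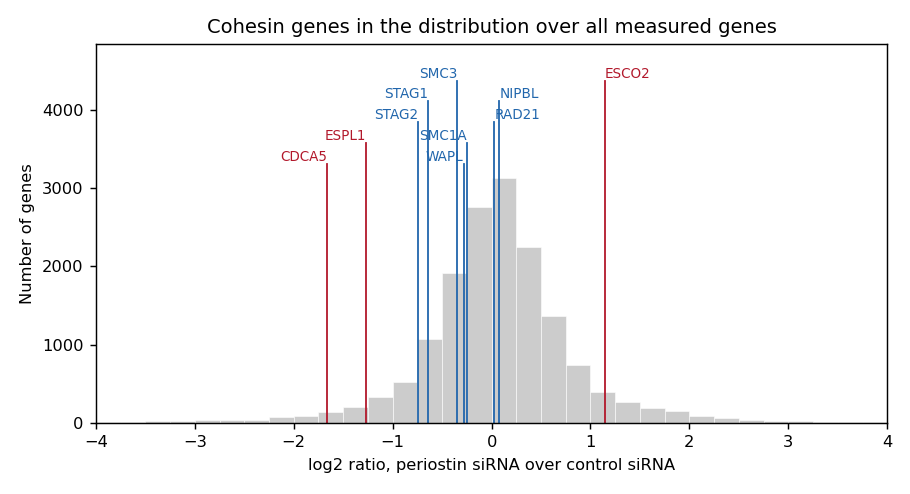
Histogram of the log2 ratio of knockdown to control, or its bound, over the measured genes. Grey bars give the number of genes per bin, shown from -4 to 4. The 10 cohesin genes are vertical lines, blue for constitutive genes and red for cell cycle regulators. RAD21 and NIPBL stand at the middle of the distribution, CDCA5 and ESPL1 in its lower tail, and the ESCO2 line is that of the brighter of 2 discordant probes.

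Other genes of the pathway were taken from a list of 29, of which 28 could be named, PLK1 being the exception, and 27 measured. The list was drawn up with earlier results of these data known, so the counts below describe it and test nothing. The ratio, or for 2 genes the bound, was below 0 for 19 and above 0 for 8 of the 27. The shares over all genes were 45.5% and 54.5%. The median log2 ratio of the list was -0.23. Of the 27, 4 were lower by more than 3-fold, where 2.75% of all genes were, and none was higher. These 4 were BUB1, SGO1, DSCC1 and PTTG1. Under the normexp correction 2 genes of the list were past 3-fold, PTTG1 at -1.87 and BUB1 at -2.0025. The share of all genes past 3-fold under that correction was not computed.

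The genes that guard or time the cutting of cohesin held 3 of these 4. All 5 that could be measured lay below 0, as did 45.5% of all genes, but 2 of the 5, SGO1 and HASPIN, had a bound and no ratio. A bound is below 0 by construction where only the control spot is well above background. PTTG1 encodes securin, which holds separase inactive until anaphase. Its signal was 5982 in the control and 1562 after knockdown, a log2 ratio of -1.94 ± 0.20. PTTG1 was thus lower on the same array as ESPL1, the gene of the enzyme it inhibits. SGO1, a shugoshin that protects cohesin at the centromere, gave 63.8 with control siRNA by its brighter probe. With periostin siRNA that probe was not well above background, at 4.31, which makes SGO1 at least 8.22-fold lower. The other SGO1 probe was well above background on neither array, at 8.35 and 2.06. SGO2, the other shugoshin, gave 117 and 43.1, a log2 ratio of -1.44 ± 0.22, which the normexp correction brought to -0.71. BUB1, the kinase that marks centromeric chromatin for the shugoshins, gave 220.1 and 10.2, a log2 ratio of -4.42 ± 0.35. The signal of HASPIN, a kinase of histone H3 at centromeres, was 11.8 with control siRNA and not well above background with periostin siRNA, at 2.47, which makes it at least 1.52-fold lower. SGO1, HASPIN and BUB1 were dim with periostin siRNA, and under the normexp correction the log2 bound of SGO1 was -1.01 and the log2 ratio of BUB1 -2.0025.

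The genes that establish cohesion at replication forks were mixed. DSCC1, a subunit of the clamp loader that works with CHTF18, gave 51.7 in the control and 10.96 after knockdown, at -2.24 ± 0.36 (SD over 10 spots). It was a dim probe, and the normexp correction gave -0.65. TIMELESS and its partner TIPIN, which stabilize the fork, had log2 ratios of -0.81 ± 0.20 and -0.48 ± 0.20. WDHD1, which links the helicase to the polymerase, gave -0.63 ± 0.10 (SD over 10 spots). CHTF18 gave -0.40 ± 0.20 and CHTF8, also of that clamp loader, 0.17 ± 0.20. ESCO1, the paralogue of ESCO2 that acetylates SMC3 throughout interphase, gave -0.10 ± 0.22. The helicase DDX11 gave 0.34 ± 0.20, and its other probes gave 0.51 and 0.44. DDX11 belongs to a family of near-identical copies that a probe may not tell apart.

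Of the loading and release group, MAU2, the partner of NIPBL in the loader, gave 1190 in the control and 1705 after knockdown. Its log2 ratio of 0.52 ± 0.20 was the highest of the whole list of 27. PDS5A, a protein that binds the ring together with WAPL, gave 0.09 ± 0.20 and was below 0 under scaling on the median, and its paralogue PDS5B gave -0.32 ± 0.21. HDAC8, which removes the acetyl mark from SMC3, gave -0.07 ± 0.20, turned to 0.02 under the normexp correction, and its other probes above background gave 0.17 and 0.44. CTCF, the protein at which cohesin halts on chromatin, gave -0.43 ± 0.21.

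By the brightest probe, the log2 ratios of the meiotic subunits and of the related SMC5/6 complex lay between -0.37 and 0.28. SMC1B was not well above background on either array, and REC8 gave 0.06 ± 0.20 and RAD21L1 0.28 ± 0.31, the former below 0 under scaling on the median. STAG3 gave 0.06 ± 0.20 by its brightest probe, but its second probe gave 88.1 and 32.4, a log2 ratio of -1.44 ± 0.23, so that its probes did not share a direction. The 6 genes of SMC5/6, which serves DNA repair and not cohesion of the ring described here, lay between -0.37 for NSMCE4A and 0.03 for SMC5, which was below 0 under quantile normalization, loess and scaling on the median. Their median was -0.15.

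**Figure D4:**
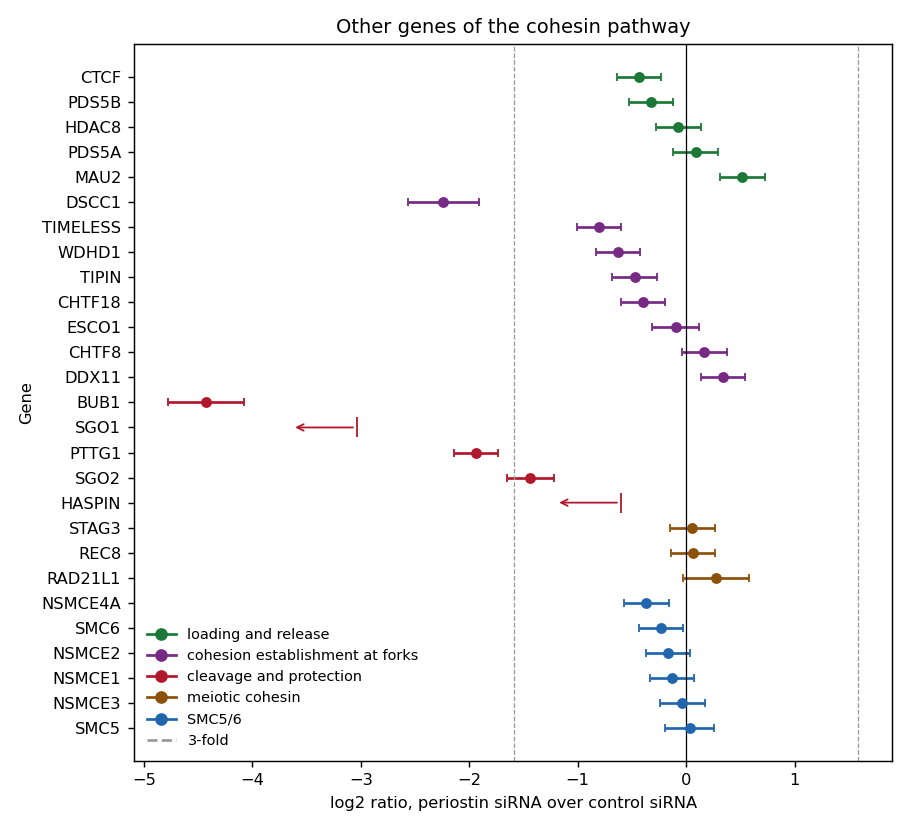
Log2 ratio of knockdown to control for the 27 measured genes of the wider cohesin list, coloured by role, with the propagated spot error as a bar, arrows starting at bounds and dashed lines at 3-fold. BUB1, SGO1, PTTG1 and SGO2 lie to the left, HASPIN starts at a bound of -0.60, and DSCC1 stands apart from the other fork genes. The loading and release genes lie between -0.43 and 0.52, and the meiotic and SMC5/6 genes between -0.37 and 0.28.

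The identity of the cells was checked with marker genes. All 8 fibroblast markers were well above background on both arrays, with summed signals of 351190 in the control and 316250 after knockdown. Of the epithelial markers 3 of 5 were above background on both arrays, with CDH1 and KRT5 on neither, and their summed signal was 177 and 305. EPCAM among them gave a log2 ratio of 1.97 ± 0.22. Of the endothelial markers 2 of 4 were above background on both arrays, with PECAM1 on neither, and the sums were 133 and 130.2. KDR, in these sums, gave 9.79 with control siRNA and was not above background with periostin siRNA, at 1.93. VWF gave 0.15 ± 0.21 by its brightest probe and 0.79 ± 0.15 (SD over 10 spots) by its other probe. Of the immune markers 3 of 6 were above background on both arrays, with MS4A1 and HLA-DRA on neither, and the sums were 1845 and 3038. The immune markers with a value were all higher after knockdown. CD14 gave 287 and 549, a log2 ratio of 0.94 ± 0.20, and CD68, a lysosomal gene that fibroblasts also express, gave 0.68 ± 0.20. PTPRC gave 0.51 ± 0.28 from the brightest of its 5 probes, a dim one. The other PTPRC probes were well above background on neither array. CD3E was well above background with periostin siRNA alone, at least 1.26-fold higher, and a bound of this kind is above 0 by construction. Each sum is over different probes and includes any marker of its list that was not above background. It serves to set a list on one array beside the same list on the other. The part of these in the cohesin ratios was not tested.

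**Figure D5:**
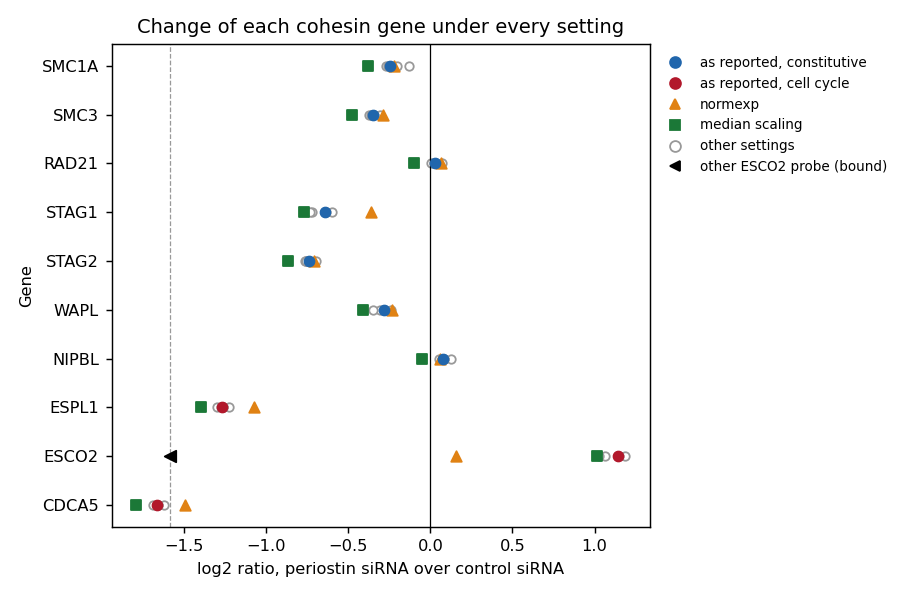
Log2 ratio of knockdown to control of the 10 cohesin genes as reported (filled circles) and under the alternative settings, with normexp as triangles, scaling on the median as squares, the other settings as open circles and the bound from the other ESCO2 probe as a black triangle. The dashed line marks 3-fold lower. CDCA5 lies between -1.79 and -1.49, RAD21 and NIPBL cross 0 under scaling on the median, and ESCO2 moves most.

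Across the alternative settings, the other ESCO2 probe aside, the log2 ratio of CDCA5 lay between -1.79 and -1.49, that of ESPL1 between -1.40 and -1.07 and that of STAG2 between -0.87 and -0.70. SMC3 stayed between -0.48 and -0.29 and STAG1 between -0.77 and -0.36. With scaling on the median the middle of all genes moved to -0.07, and the cohesin ratios moved with it.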

How the data were processed

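RNA of MRC-5 cells transfected with control siRNA or periostin siRNA was hybridized to Agilent arrays in 1 colour, with 1 array for each condition. The authors deposited a scanner file of intensity values for each array. Per the file headers these were made with Feature Extraction 11.5.1.1, while the submitters' processing notes name version 12.0.3.1, and the probes were annotated on hg19. Flags, another kind of value deposited beside them, mark spots well above background. A table of normalized intensities was deposited as well, whose method is not given in the sources used here. For the 49697 probes printed once its ratios differed from those used here by at most 0.000432 on the log2 scale.

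The 58717 spots that are not controls were scaled on their 75th percentile, 372 for the control and 383 for the knockdown array, to a common level of 377, and log2 was taken. Of these spots 58.0% and 58.9% were well above background, none was saturated, and the number of arrays limits the precision. Spots were named through RefSeq accessions of GRCh38.p14, which matched 65.1%. The spots of a probe were averaged, and the brightest probe by mean log2 signal stood for a gene. A probe above background on 1 array alone was given a bound against the higher of its own signal and the lowest signal above background on the other array, 7.55 and 7.77 after scaling, and no ratio was given where both were below. The rule for named genes was all 10 cohesin genes, every gene of the wider list, POSTN, GAPDH and the marker genes. The members and lists were chosen with earlier results of these data known. Python 3.11.15, numpy 2.4.6, pandas 2.3.3 and R 4.3.3 with limma 3.58.1 were used. The scaling and the 3-fold counts were tested on simulated data, with changes set only in genes whose signals lay above the 75th percentile. Bounds and the ratios of dim probes were not tested there. The alternatives were normexp (offset 50), loess (span 0.3), quantile normalization, scaling on the median, on spike-in probes, on spots well above background or not at all, the authors' table, other handling of probes, flagged spots and dim spots, and thresholds of 2-fold and 4-fold.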

Additional observations from a re-analysis of the deposited data

How the results depend on the processing

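No paired analysis was possible because there are no replicates, nor could a replicate be left out. The log2 ratios of CDCA5, ESPL1, STAG2, STAG1, SMC3, WAPL and SMC1A stayed below 0 under the normexp correction, quantile normalization, loess and the other scalings, while RAD21 and NIPBL changed sign under scaling on the median. Each of the 16 probes is 1 spot without an outlier flag, so the settings on spots return the reported ratio by construction, as do those on probes for a gene with 1 probe, and the ratios of the authors' table differ from those reported by at most 0.000432 on the log2 scale for probes printed once. The count of cohesin genes lower by more than 3-fold, 1 as reported, was 0 under the normexp correction, 2 at a 2-fold threshold, 0 at 4-fold and 2 with the other probe of ESCO2. The count of those higher was 1 at 2-fold, that being ESCO2. Under the normexp correction the wider list had 2 genes past 3-fold lower in place of 4, and the median of the cell cycle regulators was -1.07. Its offset of 50 pulls the ratios of dim spots towards 0 by construction. The share of all genes past 3-fold under that correction, or past 4-fold, was not computed, so those counts stand without a background. Scaling on the median moved the median of the constitutive genes to -0.41. With the other probe of ESCO2, chosen after seeing the data, the median of the cell cycle regulators was -1.59 and the gap between the medians -1.30. ESCO2, SGO1, HASPIN, DSCC1, BUB1 and RAD21L1 rest on probes close to background on at least 1 array, and SMC1B, above background on neither, has no ratio.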
